A study of Homo sapiens with 8 samples.

Results

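The DNAJ genes encode the J-proteins, the co-chaperones that bring substrates to HSP70. They were examined in HepG2 cells, a human hepatocarcinoma cell line, that received either the plasmid pGRHL2 or the plasmid pcDNA3. Members were all genes of the expression table whose symbol is DNAJA, DNAJB or DNAJC followed by digits, which gave 40 of 17561 genes: 3 DNAJA, 11 DNAJB and 26 DNAJC genes on 18 chromosomes. The symbols alone set the membership, but the family was chosen by the measured values of these same libraries, because DNAJC27 was among the lowest log2 fold changes of the table. The values of DNAJC27 are therefore a description and carry no test. pGRHL2 carried a flag-tagged cDNA of the transcription factor GRHL2 under the promoter of EEF1A1, followed by EGFP on the same transcript. pcDNA3 was the control, so the plasmids differed in more than the GRHL2 insert. RNA was taken 48 h after transfection, and all 8 libraries, 4 per plasmid and numbered 1 to 4 in each, came from this 1 line grown in William's medium with fetal bovine serum, insulin and dexamethasone. The question addressed by the comparison is which genes respond when GRHL2, an epithelial factor, is raised in a hepatocyte-derived line.

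J-proteins carry a J-domain with an HPD motif that triggers ATP hydrolysis by HSP70, so that HSP70 closes on its client. Class A members keep the zinc-finger and glycine-rich regions of bacterial DnaJ, class B members keep the glycine-rich region, and class C members share only the J-domain and are tied by their other domains to particular places and tasks. Nucleotide exchange factors then reopen HSP70, and several class A and B genes are textbook targets of the heat shock factors. DNAJC27, also called RBJ, joins a Rab-like GTPase domain to a J-domain.

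The values are log2, per transcript length, with the mean of each same-numbered pair of libraries removed by the processing, so that a pGRHL2 library and the pcDNA3 library of the same number lie at mirrored distances from the gene's mean. For that reason a gene that differs in the same direction in all 4 pairs also has groups that do not overlap, and the SD is the same in both groups. The log2 fold change (log2 FC) is pGRHL2 minus pcDNA3, with the SD of the 4 pair differences. GRHL2 itself lay between 6.61 and 7.25 in the pcDNA3 libraries and between 16.22 and 16.86 in the pGRHL2 libraries (log2 FC 9.48 ± 0.57, n = 4 pairs; limma adjusted p of 4.84e-08), with reads of the plasmid cDNA included. The paper's RT-qPCR found little or no GRHL2 in these lines in basal conditions, so the pcDNA3 values of GRHL2 need not mean moderate expression. The library medians lay between 6.71 and 6.73, and the depth is unknown because no counts are given. Of the 8 hepatic markers, 8 were in the table, and their log2 summed level was 18.1 to 18.3 in pcDNA3 and 18.2 to 18.4 in pGRHL2 libraries. In the table were 2 of 6 fibroblast, 2 of 4 endothelial and 3 of 5 leukocyte markers, none of them past an adjusted p of 0.05 by limma. Their log2 summed levels were 6.38 to 6.51 in pcDNA3 and 6.49 to 6.62 in pGRHL2 libraries for fibroblast, 5.49 to 5.59 and 5.52 to 5.61 for endothelial, and 13.1 to 13.3 and 13.2 to 13.4 for leukocyte markers, the last set by LYZ at a level of 13.27. COL1A1 was the 1 such marker whose groups did not overlap, at a log2 FC of 0.20 ± 0.10, and its part in the results was not tested. In bulk RNA, fewer cells with a transcript and less transcript per cell cannot be told apart, and the share of cells that took up a plasmid is not known from these files.

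DNAJC27 was the member with the largest difference. The gene lies on chromosome 2 from 24943636 to 24972094 on the minus strand of hg38. Its deposited values in pcDNA3 libraries 1 to 4 were 8.19, 8.17, 7.92 and 7.93. Its values in pGRHL2 libraries 1 to 4 were 7.12, 7.14, 7.40 and 7.38. The groups did not overlap, with a gap of 0.52 between the lowest pcDNA3 and the highest pGRHL2 library, and libraries 1 and 2 stood farther apart than libraries 3 and 4. The pair differences were -1.07, -1.02, -0.52 and -0.55, which gave a log2 FC of -0.79 ± 0.30 (SD, n = 4 pairs), or 57.8% of the pcDNA3 level. It was the 3rd lowest log2 FC among all 17561 genes, of which 12 (0.0683%) were at -0.5 or below, and it lay 0.55 below the next member. Its mean level of 7.66 was at the 59.0th percentile of the table, under the family median of 8.29.

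The sequence upstream of DNAJC27 is shown because this member carries the largest value. The 250 bases before its start (RefSeq, GRCh38.p14, minus strand, chr2:24972095-24972344, 63.2% G or C) read as follows, with a TGACGTCA run in capitals. This run is the textbook cyclic AMP response element. It was searched for only after the sequence had been seen.
DNAJC27 upstream: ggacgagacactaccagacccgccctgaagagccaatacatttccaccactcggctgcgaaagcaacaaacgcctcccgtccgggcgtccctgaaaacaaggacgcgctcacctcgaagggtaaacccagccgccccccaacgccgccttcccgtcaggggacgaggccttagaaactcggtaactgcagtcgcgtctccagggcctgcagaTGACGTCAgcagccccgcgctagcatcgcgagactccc
The run starts at -38, counted from the gene's start. It was in both 300-base windows of DNAJC27 (250 bases before to 50 after a start) and in no window of another member, and 2.58% of 18290 windows of table genes held it on either strand. A match in these letters is a description of the sequence and not a site shown to be bound.

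Of 5 listed neighbours of DNAJC27 on chromosome 2, 0 had an adjusted p under 0.05 by limma, and 1, EFR3B, had an unadjusted p under 0.05, where 2.19% and 16.0% of all genes did. ADCY3, an adenylyl cyclase, had a log2 FC of 0.05 ± 0.05 at a level of 4.23. CENPO, a centromere protein, was at 0.02 ± 0.20 at a level of 7.97. POMC, the precursor of several peptide hormones, was at 0.00 ± 0.02 at a level of 0.06. EFR3B, which helps to hold a lipid kinase at the plasma membrane, had a level of 3.10. Its log2 FC was 0.12 ± 0.14 (limma adjusted p of 0.260), the largest of the 5. DNAJC27-AS1, the antisense transcript that shares 224 of the 5624 exon bases of DNAJC27 (3.98%), had a log2 FC of -0.03 ± 0.04 at a level of 1.20. Counting did not use strand, so reads over those shared bases cannot be assigned to either gene. Of the 5 neighbours, all but CENPO had a mean under 5, where the transformation shrinks differences. The small values of these weak genes do not bear on whether they changed.

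**Figure D1:**
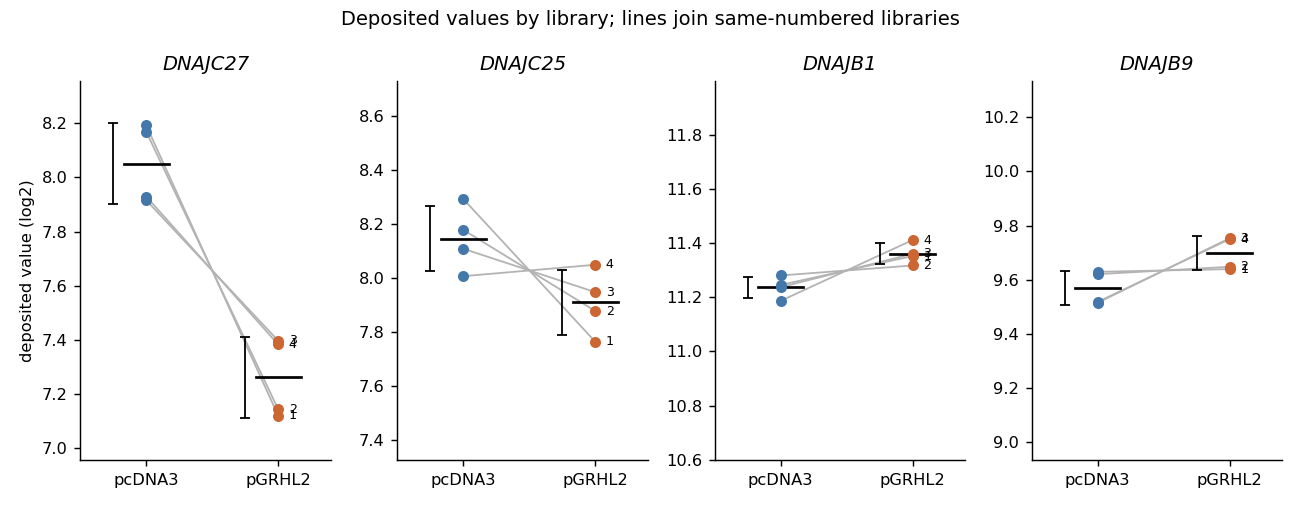
Deposited log2 values (vertical axis, the same span in each panel) of DNAJC27, DNAJC25, DNAJB1 and DNAJB9 in the 4 pcDNA3 and 4 pGRHL2 libraries; grey lines join libraries of the same number, black bars are group means and the brackets beside them are ± 1 SD. The DNAJC27 libraries of the 2 groups are 0.52 or more apart, whereas those of DNAJC25 overlap.

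The other members differed less than DNAJC27, with a median size of log2 FC of 0.048 without sign, against 0.040 for all genes. Of the 39 other members, 0 had a limma adjusted p under 0.05 in either direction. Over all genes 2.19% did (1.69% higher, 0.501% lower), so 0 of 39 is near that share and no result about these members. The lowest limma adjusted p among the 39 was 0.229. At an unadjusted p under 0.05 there were 3 of 39 (DNAJC25, DNAJC8 and DNAJB1), against 16.0% of all genes. Their log2 FC ranged from -0.24 to 0.13, and the 95% limma intervals of the 39 lay within -0.44 and 0.28. The intervals of the 6 members with a mean under 5 are narrowed by the transformation. With DNAJC27 included, 22 of 40 members had a log2 FC below 0, against 48.5% of all genes. The median log2 FC was -0.0025 over the 40 members and 0.0017 over all genes, and the median size without sign was 0.050 and 0.040. By pair, the median of the members was -0.02, 0.02, -0.01 and 0.02, with no common direction.

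**Figure D2:**
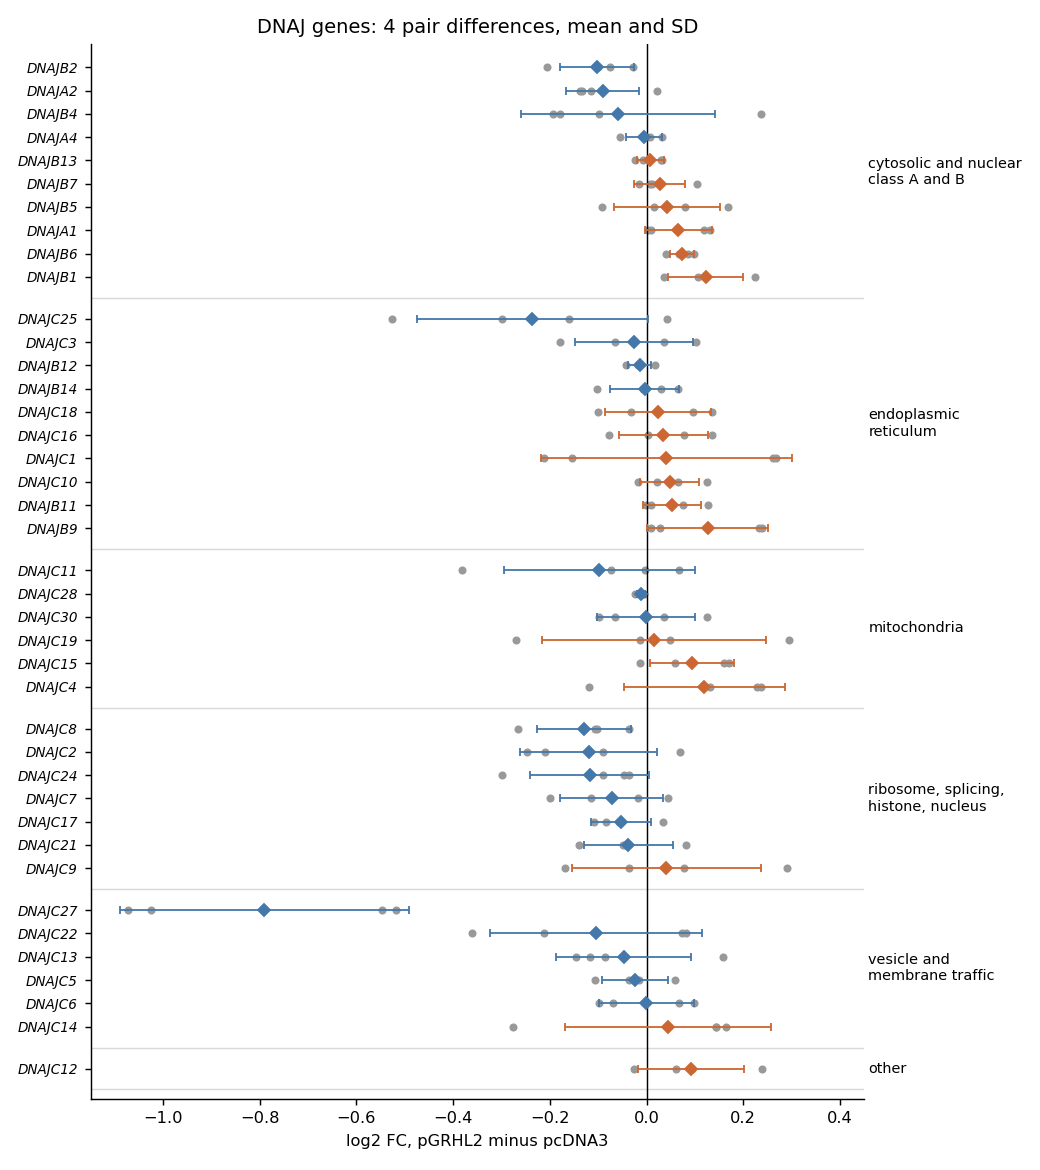
Log2 FC (horizontal axis, pGRHL2 minus pcDNA3) of the 40 DNAJ genes, ordered within 6 role groups; grey points are the 4 pair differences, diamonds their mean, bars ± 1 SD, and blue or orange marks a mean below or above 0. DNAJC27 stands at -0.79, and the other 39 genes lie between -0.24 and 0.13.

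Groups that did not overlap were found in 8 of the 39 other members, 4 higher and 4 lower in pGRHL2 libraries. Over all genes the corresponding shares were 24.0%, 13.4% and 10.5%. The 4 that were higher in all pairs were DNAJA1, DNAJB1, DNAJB6 and DNAJB9, and the 4 that were lower were DNAJB2, DNAJC24, DNAJC28 and DNAJC8. The remaining 31 had pairs of both signs. With 2.19% of all genes past the test, 0 calls in groups as small as the role groups below is no result about them.

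The cytosolic and nuclear class A and B members, the general partners of HSP70, held 10 genes of the table. Of these, 0 passed the test, 6 were above 0 and 4 below, and their median log2 FC was 0.02. DNAJB1, the main stress-induced HSP40, had values of 11.25, 11.28, 11.24 and 11.19 in pcDNA3 libraries 1 to 4. In pGRHL2 libraries 1 to 4 it had 11.35, 11.32, 11.36 and 11.41. Every pGRHL2 library was above every pcDNA3 library, by little: the log2 FC was 0.12 ± 0.08 (n = 4 pairs; limma adjusted p of 0.293). DNAJB6, which keeps polyglutamine proteins from aggregating, lay between 10.54 and 10.57 in pcDNA3 and between 10.61 and 10.64 in pGRHL2 libraries, with the log2 FC at 0.07 ± 0.02 (limma adjusted p of 0.547). In DNAJA1, a farnesylated class A co-chaperone, the pair differences were 0.00, 0.12, 0.01 and 0.13, with a mean of 0.07 ± 0.07 (limma adjusted p of 0.544). DNAJB2, a co-chaperone with ubiquitin-binding motifs, lay between 9.91 and 10.00 in pcDNA3 and between 9.79 and 9.88 in pGRHL2 libraries. Its groups were just apart, at -0.10 ± 0.08 (limma adjusted p of 0.437). The other heat-shock-inducible members gave log2 FC of -0.06 ± 0.20 for DNAJB4, 0.04 ± 0.11 for DNAJB5 and -0.00 ± 0.04 for DNAJA4, with overlapping groups. Over the 7 heat-shock-inducible members, 0 passed the test, 4 were above 0 and 3 below, and the median was 0.04. DNAJA4 and DNAJB5 among them had a mean under 5, where the transformation shrinks differences. The remaining 3 genes were the class A member DNAJA2 (-0.09), the testis-enriched DNAJB7 (0.03) and DNAJB13, a component of sperm flagella (0.01). DNAJB7 shares 23.9% and DNAJB13 28.8% of its exon bases with other genes.

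The endoplasmic reticulum members, which serve the HSP70 of that compartment or the degradation of its proteins, also numbered 10. In this group 0 passed the test, 6 were above 0 and 4 below, and the median log2 FC was 0.03. DNAJC25, an endoplasmic reticulum membrane protein, had the lowest log2 FC after DNAJC27. Its pcDNA3 libraries 1 to 4 gave 8.29, 8.18, 8.11 and 8.01, and its pGRHL2 libraries 7.76, 7.88, 7.95 and 8.05. Pair 4 went the other way and the groups overlapped, so that the log2 FC was -0.24 ± 0.24 (n = 4 pairs; limma adjusted p of 0.229). DNAJC25 shares 13.7% of its exon bases with the readthrough gene DNAJC25-GNG10, and how reads there were counted is uncertain. DNAJB9, an ERdj protein that is induced by the unfolded protein response, had the highest log2 FC of the family at 0.13 ± 0.13 (limma adjusted p of 0.390). Pairs 1 to 4 differed by 0.01, 0.03, 0.24 and 0.23, which is large in pairs 3 and 4 and near 0 in pairs 1 and 2. The other 3 members known to be induced in the unfolded protein response were DNAJB11, a secreted cofactor of the ER chaperone HSPA5, at 0.05 ± 0.06, DNAJC10, a disulfide reductase, at 0.05 ± 0.06, and DNAJC3, which restrains eIF2-alpha kinases, at -0.03 ± 0.12. None of these 4 passed the test by limma, and 3 were above 0. DNAJC1, a membrane protein at the translocon, had pair differences of -0.15, -0.21, 0.26 and 0.27, a log2 FC of 0.04 ± 0.26 with the largest SD among the 39. The membrane proteins DNAJB12 and DNAJB14, which act in ER-associated degradation, had log2 FC of -0.01 and -0.00, and DNAJC16 and DNAJC18 had 0.03 and 0.02.

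Of the 7 mitochondrial members listed, 6 were in the table and DNAJA3 was not analysed here. In these 6, 0 passed the test, 3 were above 0 and 3 below, and the median was 0.01. DNAJC4 had a log2 FC of 0.12 ± 0.17, DNAJC15, a relative of the import motor subunit, 0.09 ± 0.09, and DNAJC11, which associates with the cristae-organizing complex, -0.10 ± 0.20, each with overlapping groups. DNAJC19, a subunit of the protein import motor, had pair differences of both signs up to 0.29, with the log2 FC at 0.02 ± 0.23. In DNAJC28 the groups did not overlap, but the log2 FC was -0.01 ± 0.01 at a level of -0.14, the lowest of the family. DNAJC30 was at -0.00 ± 0.10.

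The members listed as acting at the ribosome, in splicing, on histones or in the nucleus numbered 7, of which 6 were below 0 and 0 passed the test. The list also holds DNAJC7 and DNAJC24, whose tasks, named below, are other ones. The median log2 FC of this list was -0.07, the value of DNAJC7. It was the lowest of the role groups as drawn here. DNAJC8, a splicing factor, lay between 11.53 and 11.64 in pcDNA3 and between 11.38 and 11.49 in pGRHL2 libraries. The groups did not overlap and the log2 FC was -0.13 ± 0.10 (n = 4 pairs; limma adjusted p of 0.289). DNAJC24, which takes part in making diphthamide, had pair differences of -0.05, -0.09, -0.30 and -0.04, so that pair 3 gave most of its log2 FC of -0.12 ± 0.12 (limma adjusted p of 0.413). DNAJC2, which binds the ribosome together with HSPA14, was at -0.12 ± 0.14, with 21.1% of its exon bases shared with other genes. DNAJC7, a co-chaperone of HSP70 and HSP90, was at -0.07 ± 0.11, the splicing-associated DNAJC17 at -0.05 ± 0.06 and DNAJC21, which acts in making the large ribosomal subunit, at -0.04 ± 0.09. DNAJC17 shares 27.9% of its exon bases with other genes. DNAJC9, a histone chaperone, was the 1 member above 0, at 0.04 ± 0.19, and shares 56.5% of its exon bases with FAM149B1 on the other strand.

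The 6 vesicle and membrane trafficking members include DNAJC27. The other 5 lay between -0.10 and 0.04, and 0 of them passed the test by limma, all with overlapping groups. DNAJC13, an endosomal protein that recruits HSP70 to retromer carriers, had a log2 FC of -0.05 ± 0.14. DNAJC5, the cysteine string protein of secretory vesicles, was at -0.02 ± 0.07, and DNAJC6, the neuronal auxilin that uncoats clathrin vesicles, at -0.00 ± 0.10. DNAJC22 was at -0.10 ± 0.22, and DNAJC14, which retains receptors in the endoplasmic reticulum, at 0.04 ± 0.21 with 58.1% of its exon bases shared with other genes. Outside these groups, DNAJC12, a co-chaperone of the aromatic amino acid hydroxylases, was at 0.09 ± 0.11 (limma adjusted p of 0.521).

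**Figure D3:**
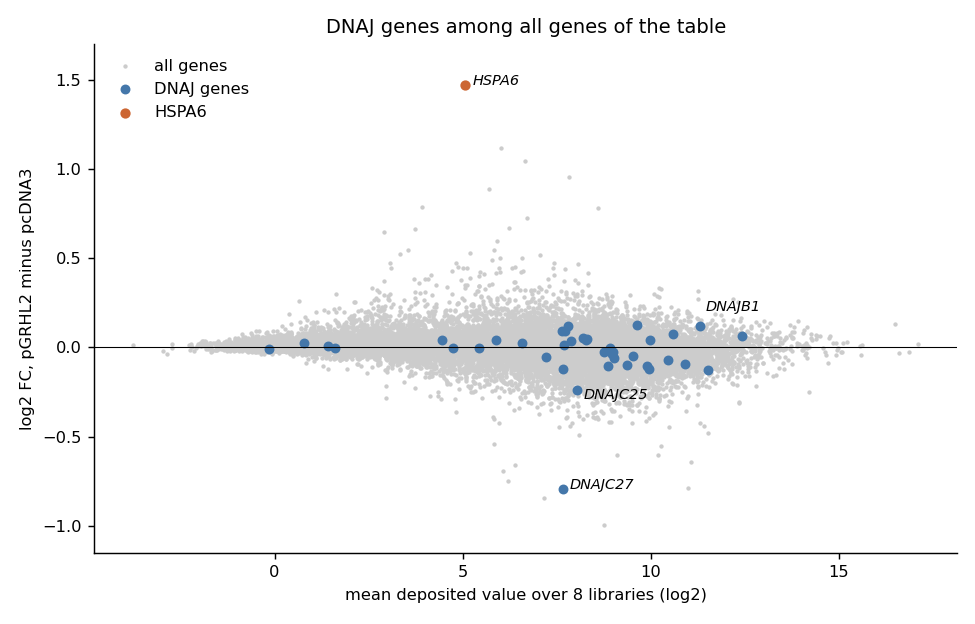
Log2 FC (vertical axis, pGRHL2 minus pcDNA3) against the mean deposited value over the 8 libraries (horizontal axis, log2) for all genes, with the 40 DNAJ genes in blue and HSPA6 in orange; 1 gene, GRHL2, lies outside the plotted range. DNAJC27 at -0.79 is apart from the other DNAJ genes, and the spread of all genes narrows at low levels.

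Levels, compared here on the log2 scale per transcript length, spanned 12.6 log2 units over the family. DNAJA1 was the highest at a mean of 12.42, the 98.8th percentile of all genes, followed by DNAJC8 at 11.51 and DNAJB1 at 11.30. The libraries of DNAJA1 lay apart from those of DNAJC8, whereas those of DNAJC8 and DNAJB1 overlapped. The median level was 8.29 over the members and 6.72 over all genes. At the other end were DNAJC28 at -0.14, DNAJB7 at 0.79, DNAJB13 at 1.42 and DNAJA4 at 1.60, each apart from its neighbour in the order. In all, 22 of the 39 steps between neighbours had overlapping libraries. The removal of the pair means takes variation between replicates out of this spread, so libraries may be called apart too often. In the 244 genes that hardly vary, the slope of level on log2 mean transcript length was -0.834. The levels of the weakest members may therefore partly reflect length. DNAJC27 overlapped with DNAJC24 above it and DNAJC15 below it. Differences of weakly expressed genes are shrunk by the transformation: the 6 members with a mean under 5 had log2 FC of at most 0.04 in size, and their small values do not bear on whether they changed. Of the 40 members, 34 had a mean of at least 5.

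**Figure D4:**
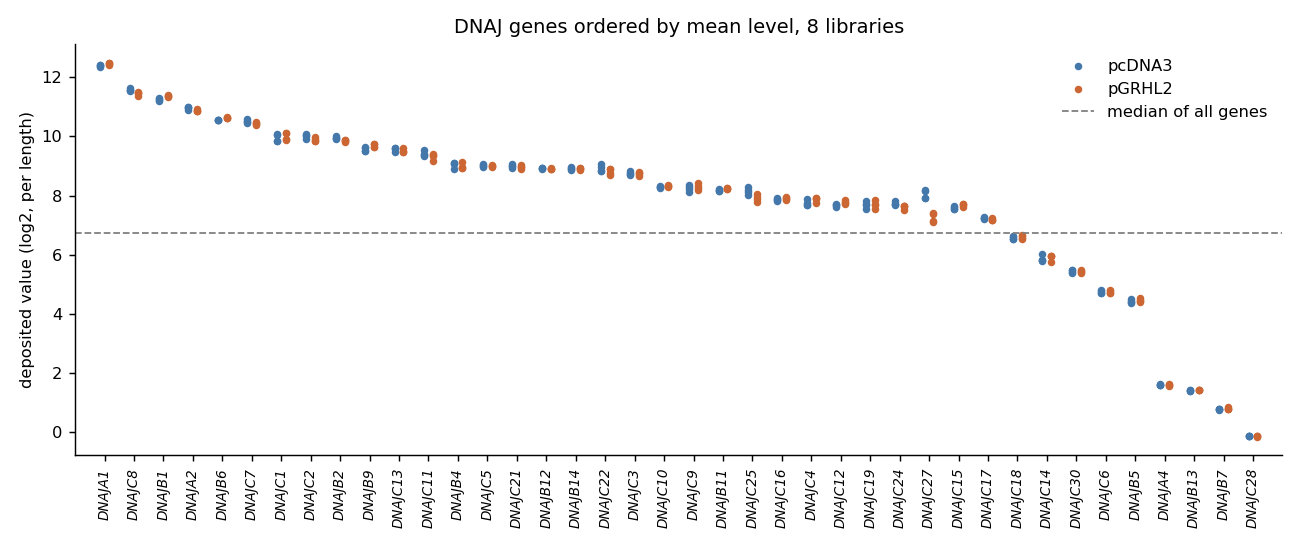
Deposited values (vertical axis, log2 per transcript length) of the 40 DNAJ genes in order of their mean, with the 4 pcDNA3 (blue) and 4 pGRHL2 (orange) libraries of each gene; the dashed line is the median of all gene means, 6.72. The 2 groups of libraries separate visibly in DNAJC27, and most other genes have near-equal values in both.

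The genes that J-proteins work with were listed by function: HSP70s, nucleotide exchange factors, HSP70 adaptors and J-proteins with other names. Of 35 listed, 31 were in the table and 1 passed the test, where 2.19% of all genes did. HSPA6, a strictly stress-inducible HSP70, had values of 4.32, 4.24, 4.56 and 4.17 in pcDNA3 libraries 1 to 4 and of 5.79, 5.87, 5.55 and 5.94 in pGRHL2 libraries. All pGRHL2 libraries were higher, by 1.48, 1.63, 0.99 and 1.78 in pairs 1 to 4. HSPA6 rose by 1.47 ± 0.34 on the log2 scale (n = 4 pairs, adjusted p of 7.76e-04 by limma), but its call was lost without the mean-variance trend (limma adjusted p of 0.0755), and it has a near-identical pseudogene, HSPA7, with which it can share reads. In the same libraries, the log2 FC of the heat-shock-inducible J-proteins was at most 0.12 (DNAJB1). Among these, DNAJA4 and DNAJB5 had a mean under 5, where the transformation shrinks differences.

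The constitutive HSP70s HSPA8, HSPA5 and HSPA9 had overlapping groups. The cytosolic HSPA8 had a log2 FC of 0.03 ± 0.04. The endoplasmic reticulum HSPA5 had 0.05 ± 0.07 and the mitochondrial HSPA9 0.01 ± 0.06. HSPA1A and HSPA1B were not analysed here. HSPA13, a microsomal HSP70, was lower in 4 of 4 pairs at -0.19 ± 0.06 (limma adjusted p of 0.125). Of the 31 partner genes, 4 were lower without overlap (HSPA13, HSPA2, STIP1 and CHORDC1) and 2 higher (HSPA6 and DNAJC5G). Over all genes these shares were 10.5% and 13.4%. By limma 0 of 13 nucleotide exchange factors, 0 of 4 adaptors and 0 of 5 other J-proteins passed the test, where 2.19% of all genes did. At an unadjusted p under 0.05 there were 5 of the 31 genes, HSPA6 included, against 16.0% of all genes. Over all 31, 19 were above 0 and 12 below, with a median of 0.01.

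**Figure D5:**
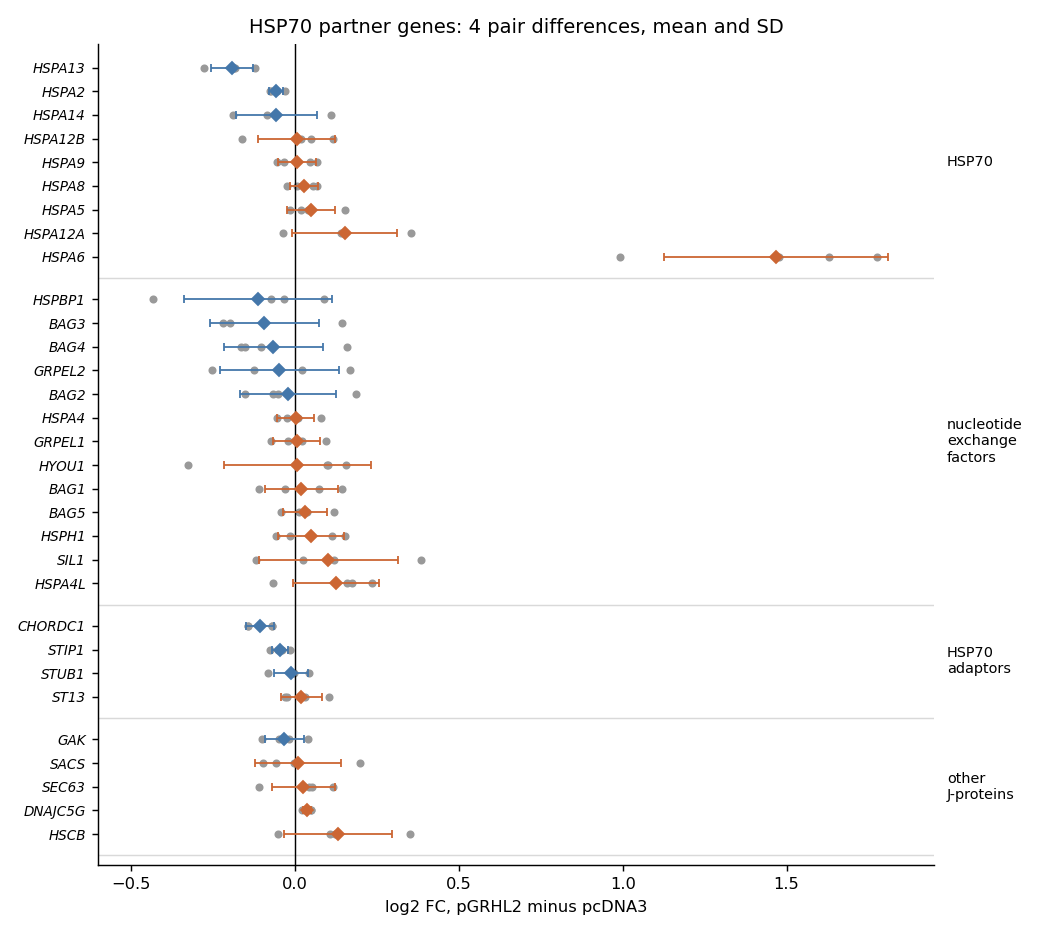
Log2 FC (horizontal axis, pGRHL2 minus pcDNA3) of 31 HSP70 partner genes in 4 functional lists; grey points are the 4 pair differences, diamonds their mean, bars ± 1 SD, and blue or orange marks a mean below or above 0. HSPA6 stands at 1.47, and the others lie between -0.19 and 0.15.

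Motifs were searched on both strands in RefSeq windows of 300 bases around gene starts (GRCh38.p14). Windows were found for 37 of 40 members, 49 in all, out of 18290 windows of table genes. The heat shock element with its inverted pair GAANNTTC was in 14.3% of member windows, from 6 genes (DNAJA1, DNAJA4, DNAJB1, DNAJB6, DNAJB7 and DNAJC6), and in 5.14% of all windows. With a further NNGAA it was in DNAJA1 and DNAJB6 only among the members, 4.08% of their windows against 0.372%. Of the 6 carriers, DNAJA1, DNAJB1 and DNAJB6 had log2 FC of 0.07, 0.12 and 0.07. DNAJA4, DNAJB7 and DNAJC6 had -0.00, 0.03 and -0.00, at means under 5, where the transformation shrinks differences. None of the 6 passed the test. DNAJA1 and DNAJB6 are shown as the members with the longer form, and DNAJB1 as the classic heat shock gene. Capitals mark the match.
DNAJA1, chr9:33025270-33025294, plus strand: cgggcgGAACTTTCCAGAAcgctcg
DNAJB6, chr7:157336865-157336893, plus strand: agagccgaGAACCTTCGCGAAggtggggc
DNAJB1, chr19:14518459-14518482, minus strand: gcggggcgGAAGGTTCtggagggg
DNAJB1, chr19:14518429-14518452, minus strand: gggctctgGAAGCTTCcgccggac
The match in DNAJA1 starts at 4 after its start, that in DNAJB6 at -131, and those in DNAJB1 at -77 and -47. Not shown are a further GAANNTTC of DNAJA1 at -198, and 1 of DNAJB1 at 2 after the start of its other window. The GRHL core AACCGGTT was in no member window and in 0.175% of all windows. With a free centre, AACNNGTT, it was in DNAJB11, DNAJC15, DNAJC25 and DNAJC7, 8.16% of member windows against 2.78%. Shown are DNAJC25, the lowest of the 39 others, and DNAJB11, with the match in capitals at -84 and -130.
DNAJC25, chr9:111631242-111631265, plus strand: tccctaccAACGGGTTgcgaagga
DNAJB11, chr3:186570582-186570605, plus strand: tgaagcctAACTGGTTgcccgtgc
Of these 4 genes, DNAJB11 and DNAJC15 had a log2 FC above 0 (0.05 and 0.09) and DNAJC25 and DNAJC7 below 0 (-0.24 and -0.07). The core of the unfolded protein response element, TGACGTGG, was in DNAJC10 alone, against 0.831% of all windows, and the ER stress response element was in no member window, against 0.0984%. None of these motifs was in the windows of DNAJC27. A motif missing from a window says only that these letters are not there.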

How the data were processed

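RNA-seq of HepG2 cells gave 1 deposited table of log2 values for 17561 genes in 8 libraries. The groups and replicate numbers came from the sample labels, which do not say whether the libraries are separate cultures, whereas the study calls them 4 independent biological replicates. According to the methods and the submitters' processing notes, the authors mapped reads to hg38 (HISAT2 2.2.1), counted them over exons without strand (HTSeq 0.9.1, union mode, minimum quality 10), removed genes with few reads, and deposited rlog values of DESeq2 1.40.2, adjusted for mean transcript length, on a log2 scale. These versions are those of the notes, and the methods give other versions of the mapper and of the package that made the rlog values. The table is named as FPKM, but 3.71% of its values were below 0. In 17561 of 17561 genes the 4 pair means were identical (tolerance 1e-09), so the replicate number had been used to adjust the values. A correlation check of the pairing is void by construction, and the pairs were kept as a block.

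All genes were fitted with limma 3.58.1 in R 4.3.3 (lmFit, eBayes with trend, replicate block, 3 residual degrees of freedom, Benjamini-Hochberg over all genes, threshold 0.05), after the code had been tested on simulated data. Members, lists and named genes were chosen with earlier results of these data known: DNAJC27, members past the threshold, the 3 largest increases and decreases without overlap, the 3 highest and lowest levels, the heat-shock, unfolded-protein and trafficking members, HSP70s, partners past the threshold and 5 genes around DNAJC27. The text goes beyond this rule by giving the log2 FC of every other member, chosen after the values were seen. Exon sharing used GENCODE release 44. The alternatives tried were no block, each replicate left out, robust and untrended eBayes, 2 rescalings, a minimum mean of 5, a threshold of 0.01, and trends in GC, length and level removed. HSPA1A, HSPA1B, HSPA1L, DNAJC5B, DNAJA3, DNAJB3 and DNAJB8 were not analysed here. Promoter sequences came from RefSeq (GRCh38.p14).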

Additional observations from a re-analysis of the deposited data

Results flagged for a closer look

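In CENPO, which lies beyond ADCY3 from DNAJC27, the difference of pair 4 was -0.2749, far from the other 3 pair differences, whose median was 0.129. Of 30 named genes examined, 1 had such a pair, and chance gives about 1 in 20.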

How the results depend on the processing

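In the main fit 0 of the 39 DNAJ members with a test passed in either direction, where 2.19% of all genes did. With each replicate left out in turn, 0 passed too. Under the fit without the replicate block, 2 passed as higher (DNAJB1, adjusted p of 0.0214, and DNAJB6, 0.0483) and 2 as lower (DNAJC8, 0.0300, and DNAJB2, 0.0494), and 5 partner genes passed in place of 1. This fit counts 6 residual degrees of freedom where 3 exist. On the simulated data 76.5% of its calls were false, against 6.21% with the block. The share of all genes that it called is not given here, so these counts are no result about the members or partners. eBayes without trend gave 0 partner genes. The log2 FC of DNAJC27, described without a test, lay between -0.88 and -0.70 with a replicate left out. The medians of the members and of the partner genes moved by less than 1 SD of their pair values under every alternative tried.

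Signs turned in genes near 0. Over the fits with a replicate left out, DNAJB13 ranged from -7.64e-05 to 0.018, DNAJA4 from -0.017 to 0.013, DNAJC3 from -0.069 to 0.024, DNAJC5 from -0.052 to 0.0031, DNAJC6 from -0.033 to 0.033, HSPA9 from -0.014 to 0.026, POMC from -0.0057 to 0.0057 and CENPO from -0.020 to 0.12. DNAJB4 kept its sign but ranged from -0.16 to -0.014, and DNAJB5 from 0.00096 to 0.088. With libraries centred on their medians POMC was at -0.0039. With equal linear totals without GRHL2, DNAJC28 was at 0.0024, DNAJA4 at 0.0090 and DNAJC6 at 0.013. With the block and with GC, length and level trends removed, DNAJB13 was at -0.016, DNAJC28 at 0.00060, DNAJC3 at 0.016, HSPA8 at -0.019 and POMC at -0.024. None of these genes passed the test in any of these fits, and the cause was not tested. EFR3B passed without replicate 3 (adjusted p of 0.0415). The depth is unknown, which leaves the precision of weak genes unstated.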
